A study of Mus musculus with 6 samples.

Results

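The genes described here are the cyclin-dependent kinase inhibitors Cdkn1a, Cdkn1b, Cdkn1c, Cdkn2a, Cdkn2b and Cdkn2c, the tumour suppressor Trp53 (p53), its ubiquitin ligase Mdm2 and the nuclear lamina gene Lmnb1. They were taken by symbol from the deposited gene table, and their choice used no measured value. All 9 were found among the 17830 genes of the table and all 9 passed the filter on low counts, which left 13484 genes for testing. RNA was sequenced from cells labelled as skull osteoblasts that had grown out of calvarial bone chips and were sorted by flow cytometry for the red reporter. The series held 6 libraries from mice aged 6 months, 3 of the control genotype mOCN-Cre; Ai9 and 3 of the genotype TgAPPswemOCN-Cre; Ai9, called APPswe below. Both genotypes carried mOCN-Cre, a Cre knocked in behind the osteocalcin gene Bglap, and Ai9, a tdTomato reporter switched on by Cre. Only the APPswe mice also carried a human APP transgene with the Swedish mutations, driven by the CAG promoter once Cre has removed a stop cassette. The mice had a C57BL/6J background. The sources did not state whether each library came from a separate animal or culture, so the p-values measure only the spread between these libraries. APPswe replicates 2 and 3 had the most alike counts of all pairs, at a chi-square per degree of freedom of 1.57. The next lowest pair, control replicates 1 and 3, stood at 5.94. Whether APPswe replicates 2 and 3 share an animal or culture was not tested, so the spread within APPswe may understate that between animals.

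Cyclin-dependent kinase inhibitors hold back the kinases that drive a cell through its division cycle. The Ink4 proteins, encoded by Cdkn2a, Cdkn2b and Cdkn2c, bind CDK4 and CDK6 and keep them from D-type cyclins, which leaves the retinoblastoma protein Rb in its active, growth-restraining form, while the Cip/Kip proteins, encoded by Cdkn1a, Cdkn1b and Cdkn1c, bind cyclin-CDK complexes more broadly. Damage or stress stabilizes p53, which switches on Cdkn1a and also Mdm2, and Mdm2 in turn marks p53 for degradation. In senescent cells, which have left the cycle for good, p16Ink4a from Cdkn2a and p21 from Cdkn1a typically accumulate, lamin B1 from Lmnb1 is lost, and many cells secrete cytokines and proteases.

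Total counts ranged from 17649704 to 18398392 in the control and from 17263757 to 17555489 in the APPswe libraries. Control replicate 2, whose library name carries an S where the other 5 carry an L, stood apart from every other library, and the meaning of these letters is not given in the sources used here. Its summed level of 4 Y-linked genes was 0.112 CPM (counts scaled to a common library size) against 127 to 197 CPM in the others. The study, however, describes the mice as male. It held 1 count of Bglap and 2 of Dmp1, where controls 1 and 3 held 159 and 204 of Bglap and 261 and 254 of Dmp1. Dmp1 was also low in APPswe, at 12 to 16 counts. A summed list of 24 S and G2/M phase genes stood at 2506 CPM in control replicate 2 and at 1135 to 1202 CPM in the other 5 libraries. The test of each of the 9 genes and the counts of each related gene list are therefore given with and without it. The cell type markers that follow were tested with all 6 libraries only. In that fit 10.5% of all genes tested were higher and 12% lower in APPswe at an adjusted p of at most 0.05. The osteoblast label was met only in part. Of 14 osteoblast markers, 2 passed the test as higher in APPswe, Sp7 and Runx2, and 1 as lower, Spp1. The summed level of the 14 was 17581 to 18863 CPM in control and 11663 to 12301 CPM in APPswe, most of it from Col1a1, Col1a2 and Spp1. Control replicate 2 held 35 counts of Alpl and 3 of Ibsp. Controls 1 and 3 held 752 and 774 of Alpl and 1468 and 1371 of Ibsp. Col1a1 and Col1a2 were highest in control replicate 2. All 13 macrophage markers were detected in every library, none near 0, with a sum of 18348 to 25152 CPM in control and 12708 to 13685 CPM in APPswe, and 8 of the 13 were lower and 0 higher in APPswe. Skeletal muscle markers moved the other way, with 11 of 11 tested higher and a sum of 4.12 to 14.8 CPM in control against 206 to 212 CPM in APPswe, and Ckm was at 0 in the controls and at 2 to 7 counts in APPswe. Of 7 osteoclast markers tested, 4 were higher and 0 lower, and their sum was 213 to 343 CPM in control and 648 to 660 CPM in APPswe, with Calcr at 0 to 3 counts throughout. Of 6 endothelial markers tested, 0 were higher and 2 lower, with a sum of 81.8 to 246 CPM in control and 23.9 to 25.7 CPM in APPswe. Control replicate 2 held 1 count of Pecam1, 6 of Cdh5 and 2 of Emcn. Controls 1 and 3 held 827 and 895 of Pecam1, 1009 and 1126 of Cdh5 and 1191 and 1170 of Emcn. Kdr and Vwf, the markers that passed as lower, were highest in control replicate 2. The part of these cell type differences in the results below was not tested. The mouse App row did not differ between genotypes beyond the spread (log2 fold change -0.11, SE 0.11, edgeR adjusted p = 0.507), and whether reads of the human transgene reach that row is not given in the sources used here, so it does not check the labels.

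Of the 9 genes, only Cdkn1b, the p27Kip1 inhibitor, was higher in APPswe at an adjusted p of at most 0.05, at 1.53-fold its control level. Cdkn2c, the p18Ink4c inhibitor, and Trp53 were lower. The classical senescence genes Cdkn1a and Cdkn2a had lower means in APPswe without passing the test, and Lmnb1 had no stable direction. The count of 1 higher gene among 9 stood against a background of 10.5% of all genes tested, and the count of 2 lower genes against 12%. At an unadjusted p of at most 0.05 the counts were 1 higher and 3 lower, against 2402 and 2615 of the 13484 genes tested. DESeq2 gave 1 higher and 2 lower at its adjusted p, against 1495 and 1940 of these genes. None of the 9 also reached an absolute log2 fold change of 1, by edgeR at an adjusted or an unadjusted p, or by DESeq2. By edgeR 7.34% of all genes did so at the adjusted p, and 1232 of 13484 at the unadjusted p. DESeq2 called 518 higher and 610 lower of 17356 genes at this limit. The APPswe and control libraries did not overlap for 7 of the 9 genes, 2 with APPswe above and 5 with APPswe below, but 45% of all genes tested were likewise separated. The median log2 fold change was -0.19 over the 9 genes and 0.00 over all genes tested. In these bulk samples, fewer cells that express a gene and less of its RNA per cell cannot be told apart.

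**Figure D1:**
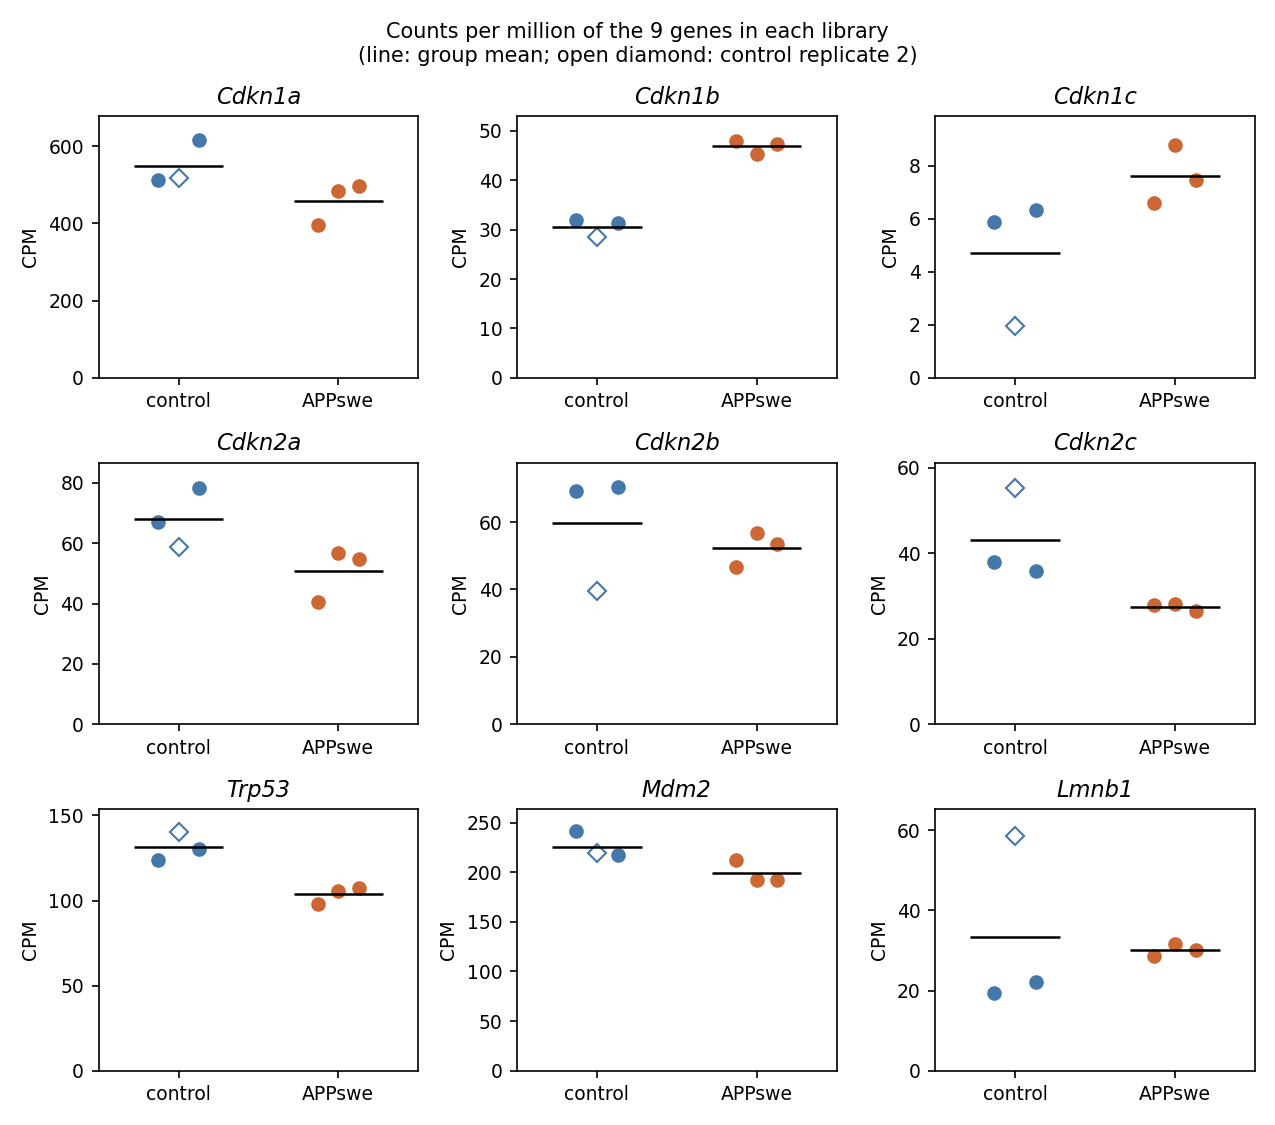
CPM (vertical axis, starting at 0) of the 9 genes in each of the 3 control (blue) and 3 APPswe (orange) libraries, with a line at each group mean and an open diamond for control replicate 2. The APPswe libraries of Cdkn1b lie at 45.4 to 48.0 CPM, all above the controls at 28.5 to 32.05 CPM, while control replicate 2 alone reaches 58.5 CPM for Lmnb1.

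The start regions of the genes that passed the test are shown so that their letters can be set beside the results, together with that of Cdkn1a, the best known target of p53. Windows of 300 bases, 250 before and 50 after an annotated transcription start, were taken from RefSeq on GRCm38.p6, and they matched 7 of the 9 genes with 10 windows. Cdkn1c had no match. Lmnb1 was not searched, because its chromosome was left out of this step and of the gene coordinates. Capitals mark 4 motifs searched on both strands, namely GGGCGG (the core bound by Sp1-type factors), CCAAT (bound by NF-Y), the E2F-type words TTTCCCGC, TTTGGCGC and TTTCGCGC, and a p53-type pair in which CATG is repeated after a gap of 6 bases, with the gap also in capitals. The first window is Cdkn1b at chr6:134920151-134920450 on the plus strand.
Cdkn1b: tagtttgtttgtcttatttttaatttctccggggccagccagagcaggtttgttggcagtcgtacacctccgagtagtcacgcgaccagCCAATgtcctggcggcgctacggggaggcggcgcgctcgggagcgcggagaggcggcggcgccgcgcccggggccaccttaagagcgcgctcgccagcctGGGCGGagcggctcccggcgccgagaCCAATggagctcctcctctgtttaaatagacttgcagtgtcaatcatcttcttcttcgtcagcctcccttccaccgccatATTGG
It held 3 matches to CCAAT and 1 to GGGCGG. The next is the upstream of 2 windows of Cdkn2c, chr4:109666707-109667006 on the minus strand.
Cdkn2c: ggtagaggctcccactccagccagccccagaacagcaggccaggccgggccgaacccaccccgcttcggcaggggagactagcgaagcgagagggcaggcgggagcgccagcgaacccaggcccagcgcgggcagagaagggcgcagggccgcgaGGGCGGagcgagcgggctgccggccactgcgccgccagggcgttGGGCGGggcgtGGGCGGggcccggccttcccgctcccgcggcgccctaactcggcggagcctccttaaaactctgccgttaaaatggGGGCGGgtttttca
It held 4 matches to GGGCGG and none to the other motifs. Trp53 lies at chr11:69580109-69580408 on the plus strand.
Trp53: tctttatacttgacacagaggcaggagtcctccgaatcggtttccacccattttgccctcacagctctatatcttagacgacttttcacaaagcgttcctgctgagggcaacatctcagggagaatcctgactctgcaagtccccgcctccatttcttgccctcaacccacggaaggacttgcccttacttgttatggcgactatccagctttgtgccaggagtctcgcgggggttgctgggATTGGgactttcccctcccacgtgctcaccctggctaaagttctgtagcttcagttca
It held 1 match to CCAAT, on the reverse strand. The upstream of 2 windows of Cdkn1a is chr17:29090729-29091028 on the plus strand.
Cdkn1a: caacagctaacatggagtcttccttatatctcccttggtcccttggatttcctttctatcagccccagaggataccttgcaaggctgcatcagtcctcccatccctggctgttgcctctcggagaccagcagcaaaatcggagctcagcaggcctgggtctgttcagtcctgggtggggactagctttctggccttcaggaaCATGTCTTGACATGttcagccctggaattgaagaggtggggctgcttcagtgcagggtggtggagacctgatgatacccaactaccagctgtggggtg
It held the CATG pair, with its first letter at position -48 where the start is position 0, and no other match. Among all 32851 windows, 0.712% held the CATG pair, 35.7% GGGCGG, 37.4% CCAAT and 1.84% an E2F-type word. None of the other 9 windows held the CATG pair, and the upstream window of Cdkn2a was the only window of the 10 with an E2F-type word. A match describes letters in these windows and is not a measured binding site.

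Cdkn1b lies at chr6:134920401-134925525 on the plus strand, and its protein p27Kip1 restrains cyclin E-CDK2 and accumulates in resting cells. Its level was 32.05, 28.5 and 31.3 CPM in control replicates 1 to 3 and 48.0, 45.4 and 47.4 CPM in APPswe replicates 1 to 3. All 3 APPswe libraries were above all 3 controls, and each group was tight. The means were 30.6 ± 1.87 and 47.0 ± 1.38 CPM (SD, n = 3 each), and the log2 fold change of 0.62 (SE 0.08) passed edgeR's quasi-likelihood test at an adjusted p of 0.00375. It was 0.57 without control replicate 2 (edgeR adjusted p = 0.000116). Cdkn1b was the only member to pass the test under all 16 alternative settings, with log2 fold changes of 0.57 to 0.69 and adjusted p of 1.45e-06 to 0.0325.

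Cdkn1a, at chr17:29090979-29100722 on the plus strand, encodes p21, which arrests the cycle downstream of p53. It was read at 511, 519 and 616 CPM in the controls and at 395, 483 and 496 CPM in APPswe. Every APPswe library was below every control, though APPswe replicate 3 and control replicate 1 lay close together. The means of 549 ± 58.5 and 458 ± 55.0 CPM (SD, n = 3 each) gave a log2 fold change of -0.26 (SE 0.12) that did not pass (edgeR adjusted p = 0.172). It passed without control replicate 2, at -0.30 (edgeR adjusted p = 0.0361). Over 1046 bases the annotation places a transcript on the opposite strand of Cdkn1a, and whether counting used strand is not given in the sources used here.

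Cdkn1c, at chr7:143458339-143461059 on the minus strand, encodes the imprinted inhibitor p57Kip2 and was the least counted of the genes, with 102, 35 and 112 counts in the controls and 118, 158 and 133 counts in APPswe. These are 5.89, 1.97 and 6.32 CPM against 6.62, 8.80 and 7.47 CPM. The groups did not overlap, but the gap between control replicate 3 and APPswe replicate 1 was small and control replicate 2 was far below the rest. The means were 4.73 ± 2.40 and 7.63 ± 1.10 CPM (SD, n = 3 each), and neither the log2 fold change of 0.69 (SE 0.41, edgeR adjusted p = 0.262) nor that of 0.32 without control replicate 2 (edgeR adjusted p = 0.0985) passed. An antisense gene, Gm44732, covers 892 bases of Cdkn1c, so reads of both may be mixed.

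The Ink4 genes Cdkn2a and Cdkn2b lie next to each other on chromosome 4, at chr4:89274473-89294619 and chr4:89306289-89311032, and Cdkn2c lies apart from them at chr4:109660876-109666756, all on the minus strand. The Cdkn2a row joins the transcripts of p16Ink4a and p19Arf, which share exons but start at different places, so the 2 products could not be read separately. Its level was 67.1, 58.7 and 78.4 CPM in the controls and 40.5, 56.8 and 54.8 CPM in APPswe. All APPswe libraries were below all controls, with control replicate 2 the closest to them. The means were 68.1 ± 9.89 and 50.7 ± 8.92 CPM (SD, n = 3 each), and the log2 fold change of -0.42 (SE 0.16) did not pass (edgeR adjusted p = 0.107). It passed without control replicate 2, at -0.52 (edgeR adjusted p = 0.00728).

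Cdkn2b encodes p15Ink4b, an inhibitor known to respond to TGF-beta. It was read at 69.2, 39.5 and 70.3 CPM in the controls and at 46.8, 56.7 and 53.4 CPM in APPswe. The groups overlapped because control replicate 2 lay below all APPswe libraries, while the other 2 controls lay above them. With all libraries, the means of 59.7 ± 17.5 and 52.3 ± 5.04 CPM (SD, n = 3 each) did not differ beyond the spread (log2 fold change -0.19, SE 0.22, edgeR adjusted p = 0.570). Without control replicate 2 the log2 fold change was -0.41 and passed (edgeR adjusted p = 0.00248).

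Cdkn2c was read at 38.0, 55.3 and 35.95 CPM in the controls and at 27.98, 28.2 and 26.4 CPM in APPswe. The APPswe libraries lay closely together below all controls, and control replicate 2 was the highest library. The means were 43.1 ± 10.6 and 27.5 ± 0.972 CPM (SD, n = 3 each), with a log2 fold change of -0.65 (SE 0.17, edgeR adjusted p = 0.0379). It shrank to -0.42 without control replicate 2 and still passed (edgeR adjusted p = 0.00131). The call was lost without control replicate 1 (edgeR adjusted p = 0.0537) and without APPswe replicate 1, 2 or 3 (edgeR adjusted p = 0.120, 0.127 and 0.139), fits in which fewer genes passed in the whole table, 14.8% in the first and 7.45 to 9.99% in the others, against 22.5% with all libraries. It was also lost with total counts and no TMM, with a replicate block, with a name style covariate (edgeR adjusted p = 0.0556, 0.0555 and 0.0864) and with limma on log2(FPKM + 1) without a filter (limma adjusted p = 0.0612).

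Trp53, at chr11:69580348-69591873 on the plus strand, encodes the transcription factor that links damage to arrest or death. It stood at 124, 140.2 and 130.3 CPM in the controls and at 98.1, 106 and 107 CPM in APPswe. All APPswe libraries were below all controls. The means of 131 ± 8.36 and 104 ± 4.89 CPM (SD, n = 3 each) gave a log2 fold change of -0.34 (SE 0.08, edgeR adjusted p = 0.0255), and without control replicate 2 it was -0.29 (edgeR adjusted p = 0.00507). The call was lost without control replicate 3 (edgeR adjusted p = 0.0630) and without APPswe replicate 1, 2 or 3 (edgeR adjusted p = 0.0950, 0.105 and 0.0907), and also with limma on log2(FPKM + 1) and log2(FPKM + 0.1) (limma adjusted p = 0.0502 and 0.0503). The log2 fold change stayed between -0.39 and -0.26 over all 16 settings.

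Mdm2, at chr10:117688875-117710758 on the minus strand, is both the ligase that removes p53 and a p53 target. Its level was 242, 219 and 217 CPM in the controls and 213, 192 and 193 CPM in APPswe. The groups were separated only narrowly, by APPswe replicate 1 and control replicate 3. With means of 226 ± 13.7 and 199 ± 11.9 CPM (SD, n = 3 each), the log2 fold change of -0.18 (SE 0.08) did not pass (edgeR adjusted p = 0.160), and without control replicate 2 it was -0.20 and passed (edgeR adjusted p = 0.0426). The ratio of Mdm2 to Trp53 CPM was 1.95, 1.56 and 1.67 in the controls and 2.17, 1.81 and 1.80 in APPswe, and these ranges overlapped.

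Lmnb1, which encodes lamin B1 of the nuclear envelope, was the member whose reading rested most on a single library. It was read at 19.3, 58.5 and 22.2 CPM in the controls and at 28.7, 31.6 and 30.0 CPM in APPswe. Control replicate 2 stood at 2.81 times the mean of the other 2 controls and above all APPswe libraries, whereas control replicates 1 and 3 were below all of them. With all libraries the means were 33.4 ± 21.8 and 30.1 ± 1.44 CPM (SD, n = 3 each) and the log2 fold change was -0.15 (SE 0.41, edgeR adjusted p = 0.823). Without control replicate 2 the direction turned and Lmnb1 passed as higher in APPswe, at 0.54 (SE 0.09, edgeR adjusted p = 0.000849). Control replicate 2 was also the library with the high sum of S and G2/M phase genes, and the part of this in its Lmnb1 level was not tested.

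Leaving out control replicate 2 changed the picture of the 9 genes more than any other setting. Then 2 genes were higher, Cdkn1b and Lmnb1, and 6 were lower, namely Cdkn1a, Cdkn2a, Cdkn2b, Cdkn2c, Trp53 and Mdm2, and Cdkn1c alone did not pass. In the same fit 23.3% of all genes tested were higher and 25% lower. The median log2 fold change of the 9 genes was -0.29 and that of all genes tested 0.01. Still, none of the 9 reached an absolute log2 fold change of 1. A covariate for the style of the library names (a hyphen in controls 1 and 2 and APPswe 1, none in the others) also moved calls, since Cdkn1a (-0.36, edgeR adjusted p = 0.0183) and Cdkn2a (-0.56, edgeR adjusted p = 0.0146) then passed and Cdkn2c (-0.57, edgeR adjusted p = 0.0864) did not.

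**Figure D2:**
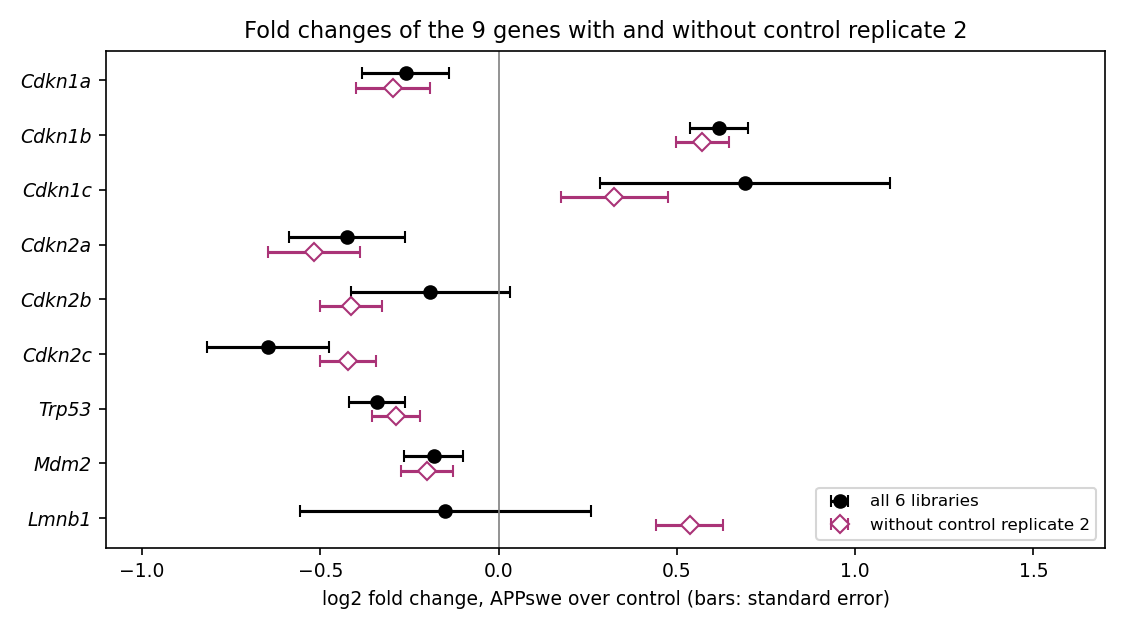
Log2 fold change of APPswe over control (horizontal axis) for the 9 genes, with standard errors as bars, from all 6 libraries (filled circles) and without control replicate 2 (open diamonds). Cdkn1b stays at 0.62 and 0.57, while Lmnb1 moves from -0.15 to 0.54.

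Levels were compared between genes only per transcript length, as FPKM, fragments scaled to transcript length and sequencing depth. Cdkn1a had the highest level in both genotypes, at 322 ± 32.2 FPKM in control and 283 ± 31.6 FPKM in APPswe (SD, n = 3 each), and it was followed by Cdkn2a at 107 ± 16.4 and 82.5 ± 13.8 FPKM, whose range in APPswe overlapped that of Mdm2. Trp53 (83.7 ± 5.47 and 69.5 ± 2.67 FPKM) and Mdm2 (76.7 ± 5.58 and 69.7 ± 5.33 FPKM) were neighbours whose ranges overlapped in both genotypes. Cdkn2b came next at 51.1 ± 14.9 and 47.3 ± 4.17 FPKM. Below it, Cdkn2c at 29.5 ± 4.23 FPKM lay above Cdkn1b at 13.9 ± 0.829 FPKM in the controls with no overlap, whereas in APPswe Cdkn1b at 22.4 ± 0.782 FPKM and Cdkn2c at 21.7 ± 1.54 FPKM overlapped. Lmnb1 stood at 12.6 ± 8.29 FPKM in control, where its range overlapped that of Cdkn1b, and at 11.9 ± 0.505 FPKM in APPswe, where it did not. Cdkn1c was the lowest in both, at 2.76 ± 1.40 and 4.69 ± 0.674 FPKM. The order of the controls was the same by mean without control replicate 2, when Lmnb1 stood at 7.82 FPKM.

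**Figure D3:**
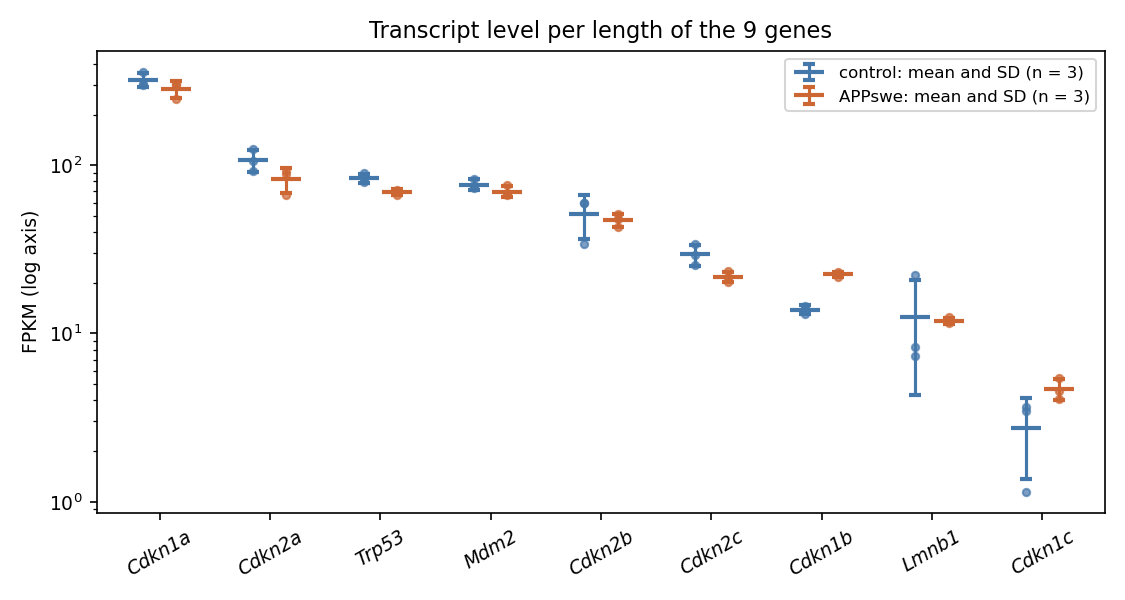
FPKM of the 9 genes (vertical log axis), ordered by the control mean, with points for single libraries and bars for the mean and SD of 3 control (blue) and 3 APPswe (orange) libraries. Cdkn1a is highest at 322 and 283 FPKM and Cdkn1c lowest at 2.76 and 4.69 FPKM, and Cdkn1b and Cdkn2c meet in APPswe.

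Ratios and sums of the members are given as descriptions, without a test. The CPM of Cdkn1a divided by that of Cdkn1b, a ratio that compares libraries and not the abundance of the 2 genes, was 16.0, 18.2 and 19.7 in the controls and 8.22, 10.6 and 10.5 in APPswe, with no overlap. Cdkn1a made up 94.3%, 95.6% and 95.3% of the summed Cip/Kip FPKM in the controls and 90.1%, 91.7% and 91.8% in APPswe, so it remained by far the largest share. The summed FPKM of the 3 Cip/Kip genes was 339 ± 33.1 in control and 310 ± 31.5 in APPswe (SD, n = 3 each), and that of the 3 Ink4 genes 188 ± 25.7 and 151 ± 16.6 (SD, n = 3 each). Both sums overlapped between genotypes. The Ink4 overlap rested on control replicate 2, at 160 FPKM, since control replicates 1 and 3 (195 and 209.9 FPKM) lay above all APPswe libraries (133, 165 and 157 FPKM). The CPM ratio of Cdkn2a to Cdkn2b was 0.969, 1.49 and 1.11 in the controls and 0.866, 1.00 and 1.03 in APPswe, and it was highest in control replicate 2.

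Across the 6 libraries, which share genotype and the odd control, the levels of some members ran together. Cdkn1a and Cdkn2a had a Pearson correlation of log2 CPM of 0.96, and 0.97 without control replicate 2, where 5 libraries remain. Cdkn1b ran against Trp53 at -0.97 (-0.96 without control replicate 2), and Lmnb1 against Cdkn2b at -0.90 (-0.81). Other pairs turned when control replicate 2 was left out, such as Cdkn2b with Cdkn2c (-0.28 and 0.89), Cdkn1b with Lmnb1 (-0.13 and 0.93) and Cdkn2c with Lmnb1 (0.48 and -0.97). These values are descriptions over 6 points. By the same measure, the other genes most like Cdkn1b among 12214 genes compared were Tnmd, Atf4 and Ptgfr (r at least 0.998), those most like Trp53 were Slc38a7, Crat and Pacs2 (r at least 0.997), and those most like Cdkn1a were Ncdn, Med29 and Ppp1r18 (r at least 0.997). For Cdkn2c they were Tor1aip2, Wdr48 and Parp14 (r = 0.999 each), and for Cdkn2a Psen2, Abhd16a and Tmem259 (r = 0.995, 0.994 and 0.990). Cdkn1c was most like Pgm2, Mgat3 and Hadh (r = 0.997 each), Mdm2 most like Mrpl18, Itfg1 and Pon3 (r = 0.995, 0.994 and 0.993), and Lmnb1 most like Slamf7, Nr2f2 and Fbxw11 (r = 0.998, 0.997 and 0.997). Such values are common with so few libraries, since between 80 genes for Mdm2 and 576 genes for Cdkn1b exceeded a correlation of 0.95.

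The partners of these inhibitors in the Rb pathway included the D-type cyclins that pair with CDK4 and CDK6. Of 18 genes for D- and E-type cyclins, their kinases, Rb family proteins and E2F factors, 1 was higher and 4 were lower at the adjusted p, against backgrounds of 10.5% and 12% of all genes. The largest difference was in Ccnd1, the cyclin D1 that Ink4 proteins keep from its kinase, at 1008 ± 56.4 CPM in control and 359 ± 10.3 CPM in APPswe (SD, n = 3 each, log2 fold change -1.49, edgeR adjusted p = 0.000296). Cdk6, the kinase bound by Ink4 proteins, was lower by a log2 fold change of -0.86, Ccnd2, encoding cyclin D2, by -0.45 and E2f1, an activator of S phase genes, by -0.54 (edgeR adjusted p = 0.00337, 0.0199 and 0.0178). E2f5, a repressive E2F, was higher at 0.50 (edgeR adjusted p = 0.0347). The list median was -0.35 and -0.06 without control replicate 2, when 3 were higher and 5 lower, against 23.3% and 25% of all genes.

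Other inhibitors, factors that assemble or degrade them and the transcription factor genes Foxo1, Foxo3 and Foxo4 showed no member past the test. Of these 10 genes, among them Cdkn2d (p19Ink4d) and Skp2, which targets p27Kip1 for degradation, edgeR called 0 higher and 0 lower. At the adjusted p edgeR called 10.5% of all genes higher and 12% lower. At an unadjusted p of at most 0.05 the counts were also 0 and 0, against 2402 and 2615 of the 13484 genes tested. DESeq2 gave 0 and 0, against 1495 and 1940 of these genes. The median log2 fold change was -0.08. The counts were 3 higher and 1 lower without control replicate 2, against 23.3% and 25% of all genes, with a median of -0.03. Among 17 Polycomb regulators, which silence the Ink4 locus, only Kdm6b, a demethylase that opposes Polycomb, passed with all libraries, at 18.7 ± 3.01 CPM in control and 37.4 ± 3.98 CPM in APPswe (SD, n = 3 each, log2 fold change 1.00, edgeR adjusted p = 0.00541). With all libraries no Polycomb regulator was lower by edgeR at the adjusted p, against 10.5% of all genes higher and 12% lower. At an unadjusted p of at most 0.05, 2 were higher and 2 lower, against 2402 and 2615 of the 13484 genes tested. DESeq2 gave 1 higher and 2 lower, against 1495 and 1940 of these genes. The list median was 0.10. Leaving out control replicate 2 gave 4 higher and 2 lower, against 23.3% and 25% of all genes, and a median of 0.17.

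Around p53, Mdm4, which restrains p53 together with Mdm2, went the opposite way to Trp53. It stood at 106 ± 5.62 CPM in control and 162 ± 5.38 CPM in APPswe (SD, n = 3 each, log2 fold change 0.61, edgeR adjusted p = 0.00285). Of 18 p53 regulators tested of 19 listed, 3 were higher and 2 lower, against 10.5% and 12% of all genes, with a median of 0.02. Rpl11, a ribosomal protein that can bind Mdm2, and Trp53bp1, a damage response protein, were higher at 0.39 and 0.32 (edgeR adjusted p = 0.0137 and 0.0262). The kinases Hipk2 and Chek2, which phosphorylate p53, were lower at -0.97 and -0.69 (edgeR adjusted p = 0.00148 and 0.00600). The fit without control replicate 2 gave 7 higher and 2 lower, against 23.3% and 25% of all genes, and a median of 0.10.

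Genes listed as p53 targets were mixed, with 3 of 35 higher and 9 lower, against 10.5% and 12% of all genes, and a median of -0.16. Perp, an epithelial adhesion and death gene, stood at 36.3 ± 21.6 CPM in control and 5.95 ± 0.435 CPM in APPswe (SD, n = 3 each, log2 fold change -2.61, edgeR adjusted p = 0.00679), and at -2.001 without control replicate 2. Rprm, a G2 arrest gene, was lower at -1.50, and Gtse1, which is expressed in G2 and can restrain p53, at -0.90 (edgeR adjusted p = 0.00793 and 0.00158). Ccnd1, also on this list, promotes rather than arrests the cycle. Ccng1 (-0.62), Zmat3 (-0.56) and Pmaip1 (-0.89), also established targets, were lower as well (edgeR adjusted p = 0.00920, 0.00316 and 0.00700). The likewise established targets Bax (-0.12), Bbc3 (-0.16) and Fas (-0.09) did not pass (edgeR adjusted p = 0.499, 0.588 and 0.751). Phlda3 pointed up at 0.43 without passing (edgeR adjusted p = 0.112). The genes from Ccng1 to Phlda3 were named after their values were seen. Ddb2, a DNA repair factor, was higher at 0.89, Ddit4, an inhibitor of mTORC1, at 0.76 and Gpx1, a peroxidase, at 0.59 (edgeR adjusted p = 0.0222, 0.0104 and 0.00325). The list had 4 higher and 14 lower genes without control replicate 2, when 23.3% and 25% of all genes passed, and a median of -0.20.

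Lamina and senescence-associated chromatin genes, the companions of Lmnb1, gave 4 higher and 2 lower of 21 tested, against 10.5% and 12% of all genes. Macroh2a2, a histone variant of silent chromatin, was higher at 0.76, and Hmgb1, Banf1 and Cbx3, encoding chromatin-binding proteins, at 0.34, 0.33 and 0.33 (edgeR adjusted p = 0.00319, 0.0205, 0.0356 and 0.0396). Hmga2, a chromatin protein of growing and of senescent cells, was lower at -1.29, or -0.79 without control replicate 2, and Sun2, an inner nuclear membrane protein, at -0.65 (edgeR adjusted p = 0.0334 and 0.00373 with all libraries). The list median was -0.08, and 0.12 without control replicate 2, when 6 were higher and 4 lower, against 23.3% and 25% of all genes.

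S and G2/M phase genes bear on whether the cells were cycling. Of 24 genes, edgeR called 0 higher and 2 lower, Mcm3, a helicase subunit, at -0.82 (-0.52 without control replicate 2) and Rrm2, a ribonucleotide reductase subunit, at -0.46 (edgeR adjusted p = 0.0357 and 0.0191 with all libraries). At the adjusted p 10.5% of all genes were higher and 12% lower by edgeR. At an unadjusted p of at most 0.05, 0 were higher and 4 lower, against 2402 and 2615 of the 13484 genes tested. DESeq2 gave 0 higher and 3 lower, against 1495 and 1940 of these genes. The median log2 fold change of -0.48 turned to 0.09 without control replicate 2, when 7 were higher and 4 lower, against 23.3% and 25% of all genes.

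Senescence-associated secretory factors moved in both directions. Of 56 tested of 60 listed, 14 were higher and 15 lower, each a larger share than the backgrounds of 10.5% and 12%, and the median was -0.14. The list was chosen with earlier results of these data known, so these shares are not independent of them. The study had named Il6, Vegfa, Hgf and Mmp9, which are on the list, as altered in this RNA-seq. Mmp9, a gelatinase that osteoclasts also make, stood at 2.22 ± 1.49 CPM in control and 126 ± 2.93 CPM in APPswe (SD, n = 3 each, log2 fold change 5.83, edgeR adjusted p = 0.000811). The neutrophil chemokines Cxcl5 and Cxcl1 were higher at 3.16 and 2.32, and the growth factor Hgf at 2.17 (edgeR adjusted p = 0.000287, 0.00405 and 0.00122). The chemokines Ccl8, Ccl4 and Ccl3, which macrophages make, were lower at -3.17, -1.58 and -1.51, and the cytokine Il7 at -1.64 (edgeR adjusted p = 0.00877, 0.00242, 0.00338 and 0.00175). The summed macrophage markers were lower and the osteoclast markers higher in the same libraries, as given above, and their part in these values was not tested. Without control replicate 2, 22 of 57 were higher and 27 lower, against 23.3% and 25% of all genes, and the median was -0.29.

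**Figure D4:**
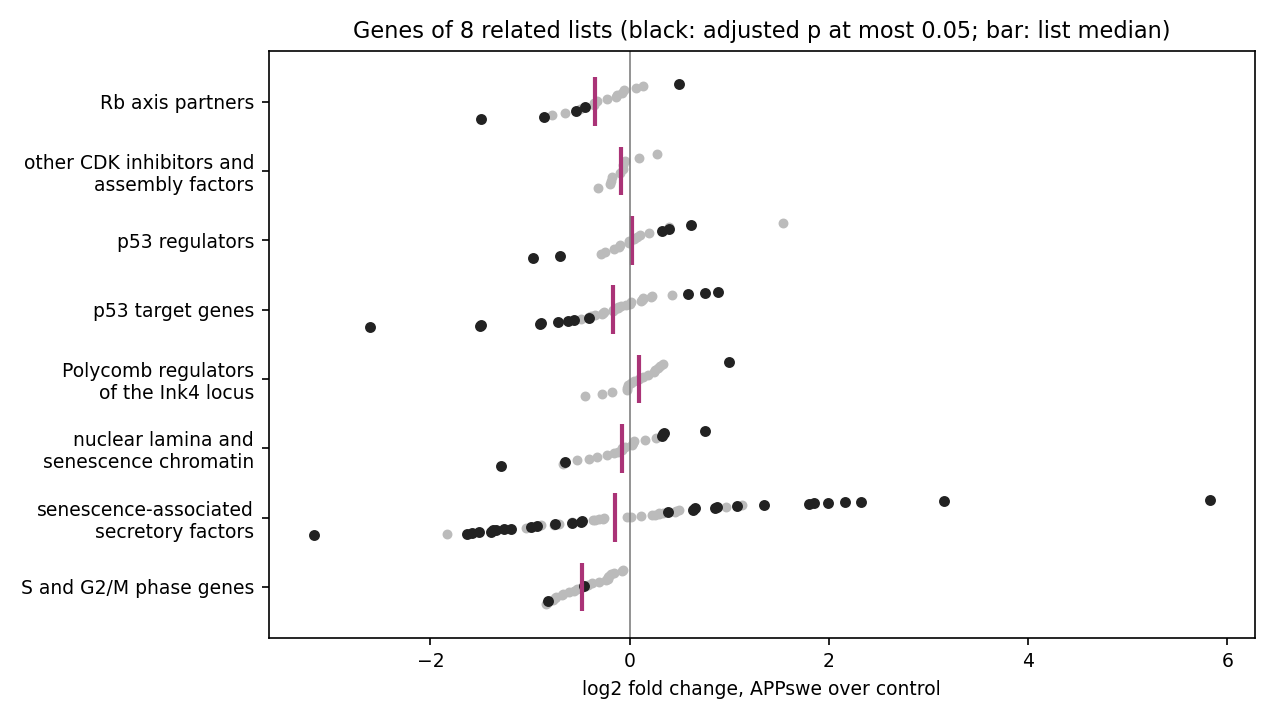
Log2 fold change of APPswe over control (horizontal axis) for every tested gene of the 8 related lists, with genes at an adjusted p of at most 0.05 in black, the others in grey and a bar at each list median. Secretory factors spread from -3.17 to 5.83, while no gene of the other inhibitors and assembly factors is black.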

How the data were processed

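Counts and FPKM were analysed for tdTomato-positive cells from cultured calvarial bone chips, 3 control and 3 APPswe libraries, grouped by the genotype in the labels. RNA libraries were made with a SMARTER mRNA-Seq kit and sequenced on the DNBseq platform. Whole-number read counts for each gene, not normalized, were deposited. FPKM came from the authors in rounded form, and the blank FPKM cells (397 genes in libraries whose names hold a hyphen and 716 in the others) were read as 0. The submitters' processing notes name GRCm38, and the aligner and counting tool are not given in the sources used here. The table also holds the authors' own log2 fold changes and p-values, which were not used. No column belonged to other samples.

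Counts were tested in R 4.3.3 with edgeR 4.0.16 (TMM, filterByExpr, quasi-likelihood test without covariate, two-sided, Benjamini-Hochberg adjustment over 13484 genes). CPM are TMM-scaled, and SE is the log2 fold change over the square root of F. Log2 CPM for correlations used a prior count of 2. Alternatives were DESeq2 1.42.0, its size factors, no TMM, 2 other filters, a replicate block, library name style, limma 3.58.1 on log2(FPKM + 1) or log2(FPKM + 0.1), and each library left out. The code was tested on simulated data. Gene coordinates and promoters came from RefSeq, and strands and overlapping genes from GENCODE, all on GRCm38.p6. Depth was similar in all libraries, and the least counted member had 35 counts in its lowest library.

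The genes, lists and tests were chosen with earlier results of these data known. Named in the text are the 9 members, up to 4 genes per list and direction with the largest log2 fold changes, given an adjusted p of at most 0.05 and a mean log2 CPM of 1 or more, App and Bglap, and the 3 genes most correlated with each member, except that those of Cdkn2b are not reported here. Other genes are cell type markers, genes named as examples of a list and the p53 targets marked in the text.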

Additional observations from a re-analysis of the deposited data

How the results depend on the processing

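Cdkn1b passed the test as higher under all 16 alternatives, and no member reached an absolute log2 fold change of 1 under any. The number of members lower at the adjusted p, 2 with all libraries, was 1 with total counts and no TMM, 1 with limma on log2(FPKM + 1), 1 on log2(FPKM + 0.1) and 1 on log2(FPKM + 1) without a filter. The gene that passed was Cdkn2c in the filtered limma fits and Trp53 without TMM and in the unfiltered limma fit. With the name style covariate 3 were lower, namely Cdkn1a, Cdkn2a and Trp53. Of 13484 genes tested, 1622 were lower with the main settings, 1286 without TMM and 1446 with the name style covariate. The filtered limma fits gave 1069 on log2(FPKM + 1) and 1079 on log2(FPKM + 0.1) of 12827 genes, and the unfiltered fit 1003 of 17382. The number of members lower ranged from 0 to 6 when each library was left out. It was 0 without any single APPswe replicate, 1 without control replicate 1 or 3 and 6 without control replicate 2. In the whole table, 698, 536 and 544 genes were lower without APPswe replicate 1, 2 or 3. Without control replicate 1, 2 or 3 these were 1128, 3438 and 1060. The number of members higher, 1, ranged from 1 to 2. The cause was not tested. Lmnb1 turned from -0.15 to 0.033 with the replicate block, 0.011 with the name style covariate, 0.090 with limma on log2(FPKM + 1), filtered or not, 0.11 on log2(FPKM + 0.1) and 0.54 without control replicate 2, and with each library left out it ranged from -0.43 to 0.54.

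Deviations of same-numbered libraries correlated at 0.07, -0.04 and 0.16, so the numbers were not taken to pair them. With the replicate block, 1 member was higher and 1 lower (Trp53, edgeR adjusted p = 0.0419), Cdkn2c had an adjusted p of 0.0555, and 933 genes of the whole table were higher and 1088 lower against 1414 and 1622 without it. Leaving out control replicate 2 gave 3199 and 3438, and leaving out each of the others gave fewer than all libraries, down to 480 and 544 without APPswe replicate 3. With limma on log2(FPKM + 1), 1851 were higher and 1069 lower, a split that leans to higher genes, and the median of all genes lay at 0.07, as it did without TMM. Depth limits Cdkn1c most, whose lowest library held 35 counts.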

Other observations

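Cdkn2c was the only member whose 2 deposited measures did not scale together. The transcript length implied by its count share and its FPKM was 1.28, 1.59 and 1.36 kb in control replicates 1 to 3 and 1.24, 1.34 and 1.33 kb in APPswe replicates 1 to 3, a highest to lowest ratio of 1.28. The same ratio was at most 1.04 in the 7 other members with at least 100 counts in every library and had a median of 1.01 over 10150 such genes. RefSeq lists 2 starts for Cdkn2c, as it also does for Cdkn1a and Cdkn2a. Which isoforms were counted was not tested.

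Within libraries of the same name style, the ratio of APPswe to control CPM kept its side of 1 in both styles for 8 of the 9 genes. The share of all genes that did so was not computed. Each style holds an arm of 1 library, APPswe replicate 1 with a hyphen and control replicate 3 without, so these ratios have no error and were not tested. The ratio was 1.59 in the libraries with a hyphen in their names and 1.48 in those without for Cdkn1b, 0.600 and 0.759 for Cdkn2c, 0.744 and 0.818 for Trp53, 0.644 and 0.712 for Cdkn2a and 0.767 and 0.795 for Cdkn1a. Lmnb1 was the exception, at 0.737 and 1.38, and the first of these was 1.48 without control replicate 2. Leaving that library out also moved the first ratio of Cdkn1c from 1.68 to 1.12, that of Cdkn2c from 0.600 to 0.736 and that of Cdkn2b from 0.860 to 0.675.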
